A study of Mus musculus with 6 samples.

Results

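Drd4, Tsx, Tpd52l1, Eppin, Susd3, B4galnt1 and Ubd are 7 genes named as targets of androgen in the Sertoli cells of the mouse testis. They were chosen with the difference between the genotypes on these same arrays in view, so their differences are described here and carry no test. Every probe set annotated with one of the 7 symbols was taken, which gave 10 of the 45101 probe sets of the array, for 7 of its 18193 named genes. Drd4, B4galnt1 and Susd3 had 2 probe sets each and the other 4 genes had 1 each. Total RNA of whole testes from mice 12 weeks old was measured on 6 Affymetrix arrays, 3 from SCARKO-jsd mice and 3 from jsd mice. Both genotypes carry the jsd (juvenile spermatogonial depletion) mutation of Utp14b, a block in spermatogonial differentiation, so that adult tubules hold mostly Sertoli cells and early spermatogonia. The SCARKO-jsd animals carry in addition a conditional knockout made in Sertoli cells. The sources used here do not give the promoter that drives the recombination, and the labels also spell the genotype SCARCO-jsd and SCARO-jsd.

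Sertoli cells line the seminiferous tubule, hold the germ cells and supply them with nutrients, signals and secreted proteins. Testosterone made by the Leydig cells between the tubules acts on Sertoli cells by switching genes on and off in their nuclei, and a set of Sertoli cell transcripts is known to depend on it. Of the genes described here, Drd4 encodes the D4 dopamine receptor, which couples to inhibitory G proteins. B4galnt1 encodes the transferase that adds N-acetylgalactosamine to simple gangliosides, the first step towards the complex ones. Ubd encodes a ubiquitin-like modifier (FAT10) that marks proteins for the proteasome and is induced by inflammatory cytokines. Eppin encodes a protease inhibitor with a WAP and a Kunitz domain, found on sperm and in the epididymis as well as in Sertoli cells. Tpd52l1 encodes a coiled-coil protein of the tumour protein D52 family, Susd3 a membrane protein with a sushi domain, and Tsx lies in the X inactivation centre. In RefSeq, Eppin is on chromosome 2, Drd4 on 7, B4galnt1 and Tpd52l1 on 10, Susd3 on 13, Ubd on 17 and Tsx on X.

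Across these genes, 9 of the 10 probe sets were lower on every SCARKO-jsd array than on any jsd array, and only the dim Ubd probe set overlapped. Among all 45037 probe sets that are not controls, 6.93% were lower without overlap in the same way. Since the members were picked by this contrast, nothing is read from that gap. Drd4 and Tsx differed most, with SCARKO-jsd levels at 21.1% and 34.4% of the jsd levels, while Eppin, Tpd52l1, Susd3 and B4galnt1 stood at 69.0% to 76.0% on their brightest probe sets. The median log2 difference over the 10 probe sets was -0.61, against 0.013 over all 45037. The values are log2 expression after RMA, and a difference is always that of SCARKO-jsd minus that of jsd. In whole testes, fewer cells of a type and less RNA per cell cannot be told apart.

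**Figure D1:**
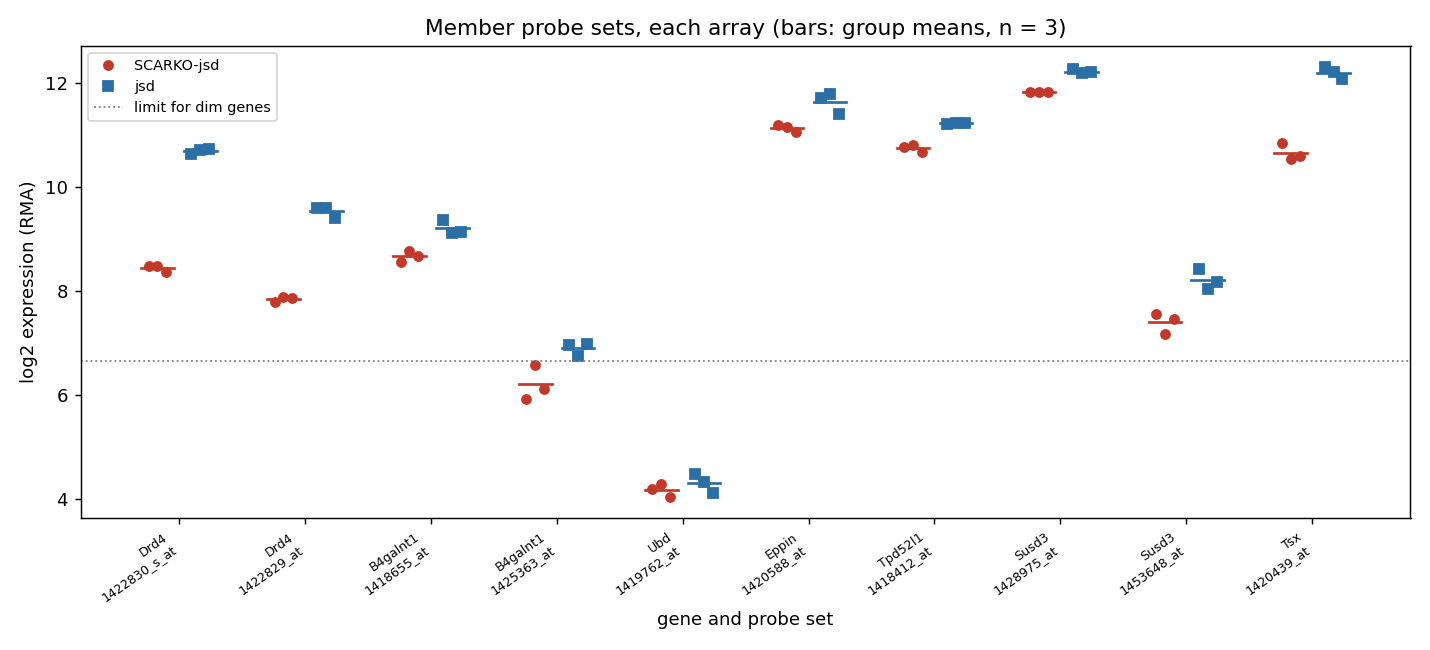
Log2 expression (RMA, vertical axis) of the 10 probe sets on each array, with SCARKO-jsd as red circles, jsd as blue squares, bars at the means of 3 arrays and a dotted line at the limit for dim genes (6.64). Only at Ubd, near 4, do the groups overlap, and the widest gaps are at Drd4 and Tsx.

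Steroid hormone receptors bind a known DNA element, and the promoters of the members were searched for its letters. Shown are those of Drd4 and Tsx, which differed most, and of Eppin, which had the closest match of those searched. The promoters of Ubd, Tpd52l1 and Susd3 were searched as well but are not printed. RefSeq promoters (build GRCm38.p6, 250 bases before to 50 after the start) were found for 6 of the 7 genes, all but B4galnt1. The element searched was the inverted repeat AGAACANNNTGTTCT, which reads the same on both strands. Capitals mark, in each promoter, the 15 bases that matched most of its 12 fixed letters.
Drd4, chr7:141291768-141292067, plus strand: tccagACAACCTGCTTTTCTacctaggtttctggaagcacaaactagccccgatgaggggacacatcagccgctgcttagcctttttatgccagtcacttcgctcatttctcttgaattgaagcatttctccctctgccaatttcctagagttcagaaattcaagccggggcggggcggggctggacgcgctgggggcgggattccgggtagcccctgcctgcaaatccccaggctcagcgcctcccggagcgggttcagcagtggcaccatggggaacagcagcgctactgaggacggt
Tsx, chrX:103414217-103414516, plus strand: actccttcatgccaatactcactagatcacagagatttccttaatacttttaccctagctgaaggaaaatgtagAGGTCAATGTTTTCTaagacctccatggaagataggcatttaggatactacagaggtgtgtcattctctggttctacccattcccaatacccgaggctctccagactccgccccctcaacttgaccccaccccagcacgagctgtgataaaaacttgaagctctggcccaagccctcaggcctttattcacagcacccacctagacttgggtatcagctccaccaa
Eppin, chr2:164593522-164593821, minus strand: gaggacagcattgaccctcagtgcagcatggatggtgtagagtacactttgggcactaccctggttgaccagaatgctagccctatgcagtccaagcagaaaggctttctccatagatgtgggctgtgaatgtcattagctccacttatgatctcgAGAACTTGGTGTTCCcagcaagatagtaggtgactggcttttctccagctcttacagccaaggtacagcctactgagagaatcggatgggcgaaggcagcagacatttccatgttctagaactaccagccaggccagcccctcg

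The full inverted repeat was in none of the 6 promoters, and 0.00913% of all 32851 RefSeq promoters of this length hold it. Eppin came closest, with 10 of the 12 fixed letters in the capitals at positions -94 to -80 from the start, a match that 1.84% of all promoters reach or pass. Drd4, Tsx and Ubd each had 9, a level that 14.5% of all promoters reach, and Tpd52l1 and Susd3 each had 7, below the median of 8. The single hexamer AGAACA, searched on both strands, was in the promoters of Eppin and Ubd and in 19.0% of all promoters. The GC box GGGCGG, also searched on both strands, was in those of Drd4, Tsx and Tpd52l1 and in 35.7% of all promoters. Drd4 held 3 copies, of which the copies at -82 to -77 and -77 to -72 share a base. No TATAAA was found in any of the 6 windows on either strand, and 13.6% of all promoters hold it. These matches describe letters in the sequence and do not show binding.

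Drd4, the only receptor of the set, showed the widest gap. Its brightest probe set, 1422830_s_at, had log2 expression of 8.47, 8.48 and 8.35 in SCARKO-jsd 1, 2 and 3, against 10.62, 10.70 and 10.72 in jsd 1, 2 and 3. The 3 SCARKO-jsd arrays lay within 0.127 of each other and the 3 jsd arrays within 0.099, with 2.14 log2 units between the groups. The difference was -2.25 ± 0.081 (SE), or 4.75-fold lower. It was the fifth largest fall of all 45037 probe sets, after Rhox5, Corin, Myoz2 and Cdo1. The other probe set, 1422829_at, read 7.78, 7.88 and 7.86 in SCARKO-jsd and 9.60, 9.59 and 9.40 in jsd testes, a difference of -1.69 ± 0.091 (SE). Both probe sets separated the groups, with a larger difference on the brighter one, whose name ending in _s_at marks a set that can match more than 1 transcript.

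B4galnt1, the ganglioside enzyme, was moderately lower. On its brighter probe set, 1418655_at, SCARKO-jsd 1, 2 and 3 had log2 expression of 8.55, 8.77 and 8.68, against 9.36, 9.12 and 9.12 in jsd 1, 2 and 3. The groups were 0.348 apart at their nearest, and the difference was -0.54 ± 0.11 (SE). The dimmer probe set, 1425363_at, read 5.92, 6.58 and 6.12 in SCARKO-jsd and 6.96, 6.75 and 6.97 in jsd testes. SCARKO-jsd 2 lay closest to the jsd arrays there, and without it the difference of -0.69 ± 0.18 (SE) was -0.88. This probe set averaged less than the dim limit, which makes its difference imprecise.

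Ubd did not separate the groups. Its only probe set read 4.18, 4.28 and 4.04 in SCARKO-jsd 1, 2 and 3, against 4.47, 4.31 and 4.11 in jsd 1, 2 and 3. The level was at the 16.8th percentile of all probe sets, well under the dim limit, and the difference of -0.13 ± 0.12 (SE) was about as large as its error. These values go against counting Ubd among the transcripts that are lower in SCARKO-jsd testes, although a change hidden in the background cannot be seen on such a dim probe set.

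Eppin, the protease inhibitor, was bright in both groups. Log2 expression was 11.20, 11.16 and 11.05 in SCARKO-jsd 1, 2 and 3, against 11.72, 11.78 and 11.41 in jsd 1, 2 and 3. The array jsd 3 lay nearest to the SCARKO-jsd arrays, 0.209 above the highest of them. The difference was -0.50 ± 0.12 (SE), and -0.61 without jsd 3. Eppin is also made in the epididymis. The 5 measured markers of that organ (Lcn5, Lcn8, Lcn9, Adam7 and Rnase10) were all dim, with a mean log2 expression of 4.47 to 4.58 on SCARKO-jsd and 4.42 to 4.55 on jsd arrays.

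Tpd52l1 differed by a similar amount with less scatter. Its log2 expression was 10.77, 10.80 and 10.66 in SCARKO-jsd 1, 2 and 3, against 11.21, 11.23 and 11.24 in jsd 1, 2 and 3. The jsd arrays spanned 0.031 log2 units and the SCARKO-jsd arrays 0.137, with a gap of 0.407 between the groups. The difference was -0.48 ± 0.078 (SE).

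Susd3 had the smallest difference among the bright probe sets. On 1428975_at, log2 expression was 11.819, 11.822 and 11.820 in SCARKO-jsd 1, 2 and 3, against 12.26, 12.19 and 12.20 in jsd 1, 2 and 3. The SCARKO-jsd arrays spanned only 0.003, and the difference was -0.40 ± 0.073 (SE). The dimmer probe set, 1453648_at, read 7.55, 7.18 and 7.46 in SCARKO-jsd and 8.42, 8.03 and 8.17 in jsd testes. Its difference of -0.81 ± 0.14 (SE) was larger than that of the brighter set, the opposite order from Drd4.

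Tsx, the X-linked member, came next to Drd4 in size. Its log2 expression was 10.84, 10.54 and 10.59 in SCARKO-jsd 1, 2 and 3, against 12.30, 12.21 and 12.07 in jsd 1, 2 and 3. The groups were 1.23 log2 units apart, several times the spread within either group. The difference was -1.54 ± 0.11 (SE), or 2.90-fold lower, and ranked 44th among the falls of all probe sets.

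**Figure D2:**
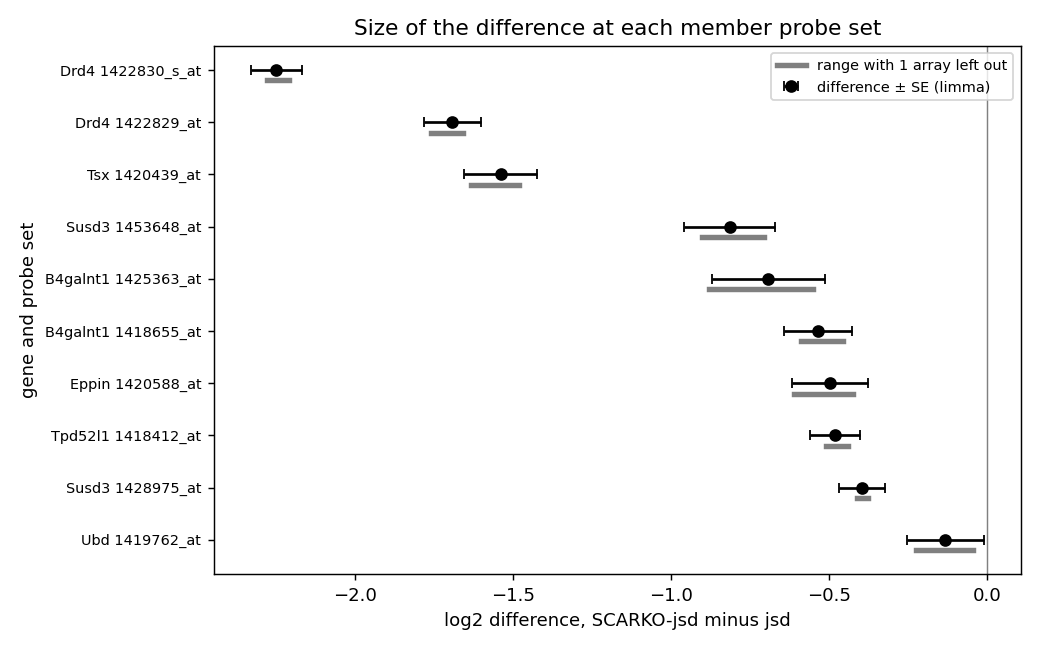
Log2 difference, SCARKO-jsd minus jsd (horizontal axis), for each of the 10 probe sets, with its limma SE as bars and the range with 1 array left out in grey. Drd4 and Tsx stand between -2.25 and -1.54, the Susd3, B4galnt1, Eppin and Tpd52l1 sets between -0.81 and -0.40, and Ubd at -0.13.

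Leaving out 1 array can change the size of the member differences but, where the groups do not overlap, not their sign. With any 1 array left out, Drd4 stayed between -2.28 and -2.21 on its brightest probe set, Tsx between -1.63 and -1.48, and Susd3 between -0.41 and -0.38. B4galnt1 on its dimmer probe set moved most, between -0.88 and -0.55, and Ubd lay between -0.23 and -0.045. In the limma fit over all 45037 probe sets, with a Benjamini-Hochberg adjusted p under 0.05, 3 of the 10 passed, both Drd4 sets and Tsx, where 0.28% of all probe sets did. With the brightest probe set of each gene and dim genes left out, Ubd dropped out and 5 of the other 6 genes passed, all but Eppin, where 3.57% of the 10916 genes tested did. As the members were chosen by this contrast, these counts are given for reference only.

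The array SCARKO-jsd 2 stood apart from the rest. Its correlation with the other arrays across probe sets was at most 0.975, and the 3' probe sets of beta-actin exceeded the 5' ones by 1.66 log2 units on it, against 0.70 to 0.98 on the other 5 arrays. For Gapdh that gap was 0.64, against -0.29 to -0.10. Its part in the results was not tested beyond leaving it out, and without it the members were at -2.27 (Drd4), -1.48 (Tsx), -0.59 (B4galnt1), -0.51 (Eppin), -0.51 (Tpd52l1) and -0.40 (Susd3) on their brightest probe sets.

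Some markers of other cell types also differed between the genotypes, in both directions (limma, Benjamini-Hochberg adjusted p under 0.05). Of 5 tested meiotic markers, Sycp3 and Meig1 rose by 1.31 and 0.84 on the log2 scale (limma, Benjamini-Hochberg adjusted p = 0.00390 and 0.0200) and 3 did not pass. Meig1 no longer passed when jsd 1, jsd 2 or SCARKO-jsd 1 was left out (largest adjusted p = 0.0957). The meiotic list of 10 measured genes had a sum of 1594 to 2104 on SCARKO-jsd and 1061 to 1195 on jsd arrays (linear scale). Such sums are set mostly by the brightest genes of each list. Of 6 tested markers of undifferentiated spermatogonia, Id4, an inhibitor of transcription factors, fell by 1.17 (limma adjusted p = 0.0173), Uchl1, a deubiquitinase, rose by 0.68 (limma adjusted p = 0.0172), and 4 did not pass. The sum over the 8 measured ran from 4277 to 4629 on SCARKO-jsd and from 4160 to 4711 on jsd arrays. Of 5 tested markers of differentiating spermatogonia, 1 passed and 4 did not. Stra8, a gene of the entry into meiosis, rose by 0.99 (limma adjusted p = 0.0379). Sohlh1 was at 0.89 and Sohlh2 at 0.70, while Ccnd2 was at 0.19 and Kit at -0.030. Sohlh1 and Sohlh2 averaged less than the dim limit in jsd testes and were tested only through their level in SCARKO-jsd testes. With an unadjusted limma p under 0.05 the count was 3. The sum over the 6 measured was 4506 to 5415 on SCARKO-jsd and 4158 to 4862 on jsd arrays. Their mean log2 expression was 8.09 to 8.53 on SCARKO-jsd and 7.68 to 7.93 on jsd arrays. Of 5 tested endothelial markers, Kdr, a receptor of vascular growth factors, fell by 0.79 (limma adjusted p = 0.0430) and 4 did not pass, and the sum over the 6 measured was 916 to 1427 on SCARKO-jsd and 1036 to 1216 on jsd arrays. Id4 and Uchl1 no longer passed when jsd 1, jsd 2 or SCARKO-jsd 3 was left out (largest adjusted p = 0.0965 and 0.0987), nor did Stra8 when any 1 jsd array or SCARKO-jsd 3 was (0.153). Kdr passed without SCARKO-jsd 2 but with no other array left out (largest adjusted p = 0.174), and not with median centring (0.0905). None of 7 peritubular myoid, 10 macrophage and 5 Leydig cell markers tested passed, with 0, 1 and 0 at an unadjusted limma p under 0.05. That count was 4 for the undifferentiated spermatogonia and 2 for the endothelial markers. Over all 10916 genes tested, 1960 had an unadjusted limma p under 0.05. The part of these differences in those of the members was not tested. Of the spermatid markers, 6 of 7 were dim, and the 1 tested did not pass.

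Among general markers of Sertoli cells, 1 was called lower and none was called higher. Of 20 listed, 18 were measured and tested, all above the dim limit. Wt1, a transcription factor of Sertoli cells, fell by 0.48 (limma, Benjamini-Hochberg adjusted p = 0.0394), and 17, Sox9 and Clu among them, did not pass. Of these 17, Inha was at 0.33, Amh at 0.33 and Mro at 0.30 (limma adjusted p = 0.0792, 0.134 and 0.265). With an unadjusted limma p under 0.05 the count was 4 of 18, namely Wt1, Inha, Amh and Mro, beside 1960 of all 10916 genes tested. With 1 array left out, Wt1 passed only where that array was SCARKO-jsd 2 (largest adjusted p = 0.187), and not with median centring (0.150). The call of 1 gene lies near the background of 3.57%. Their median log2 difference was 0.031, beside 0.043 over all genes tested. The list sum was 96800 to 104990 on SCARKO-jsd and 97282 to 105097 on jsd arrays (linear scale). It is set mostly by the brightest markers, Clu, Cst12, Ctsl, Cst9 and Aard, and says little of the dimmer ones. The mean of these markers was 0.021 higher in SCARKO-jsd, so subtracting it on each array shifts every member difference by that same amount. The step was chosen after the data were seen. With it, Drd4 was at -2.27, Tsx at -1.56 and B4galnt1 at -0.56. Eppin was at -0.52, Tpd52l1 at -0.50 and Susd3 at -0.42.

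**Figure D3:**
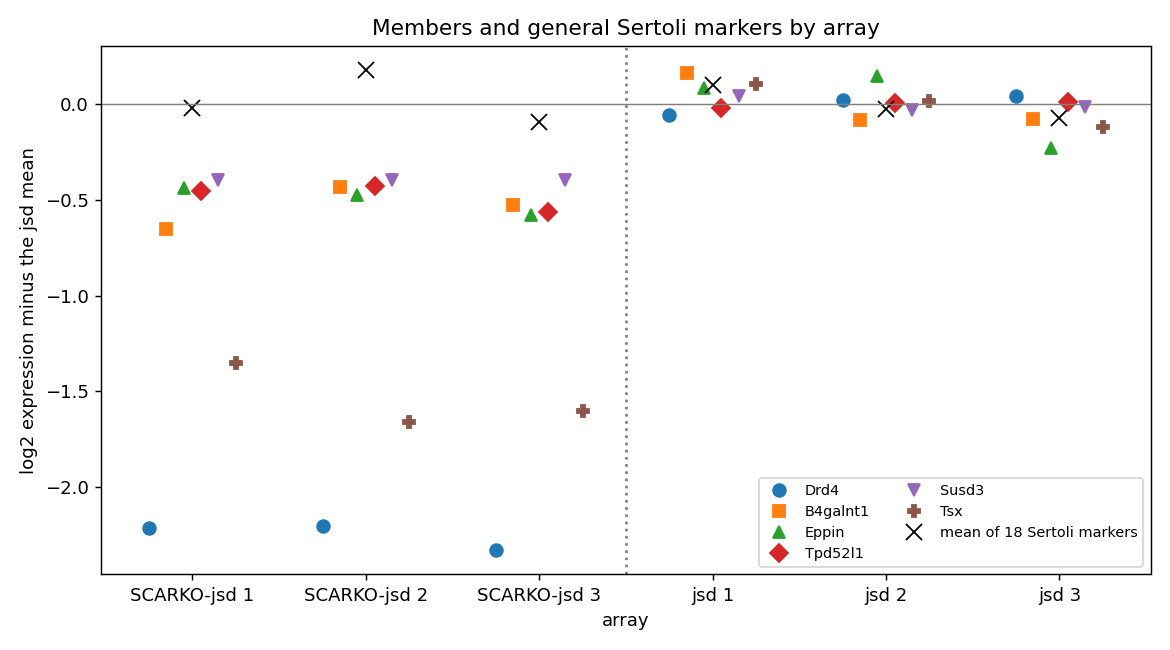
Log2 expression minus the mean of the jsd arrays (vertical axis) for 6 members on their brightest probe sets and for the mean of 18 Sertoli markers (crosses), on each of the 6 arrays. On the 3 SCARKO-jsd arrays each of the 6 members lies below all its jsd points, whereas the crosses of the groups overlap.

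Within a genotype, no array was the highest or the lowest at all 10 probe sets. SCARKO-jsd 2 was the highest of its group at 7 of the 10 probe sets and the lowest at 2, and SCARKO-jsd 3 was the highest at 0 and the lowest at 4. Among the jsd arrays, jsd 1 was the highest at 6 and the lowest at 2. Averaged over the 6 bright members, the deviations from the group mean ran from -0.065 (jsd 3) to 0.052 (jsd 1), small beside the smallest difference among them, -0.40 at Susd3.

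The genes most like each member over the 6 arrays, by Pearson's r among the 10910 tested genes that are not members, are given as a description, because a shared difference between the groups sets most of r. Drd4 was followed most closely by Dot1l, a histone methyltransferase (r = 0.9995), and Wfdc6a (r = 0.997), although Dot1l differed by only -0.33. Tsx was followed by Timm17a, of the mitochondrial import machinery (r = 0.998), and Manf (r = 0.998), Tpd52l1 by Tomm34 (r = 0.996) and Dot1l (r = 0.993), and Susd3 by Syt7, a synaptotagmin (r = 0.996), and Bloc1s3 (r = 0.996). B4galnt1 was most like Nudc (r = 0.999) and Pitpnm2 (r = 0.997), and Eppin most like Bbox1, an enzyme of carnitine synthesis (r = 0.993), and Chd1 (r = 0.992). Ubd, with its overlapping groups, was most like Scara5 (r = 0.994) and Ctsl, a bright Sertoli protease (r = 0.985). Of these, Syt7 had the largest difference, at 8.61, 8.78 and 8.65 in SCARKO-jsd 1, 2 and 3 and 10.18, 9.87 and 10.04 in jsd 1, 2 and 3, or -1.35 ± 0.11 (SE).

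Among other genes held to respond to androgen in Sertoli cells, Rhox5 and Corin fell. Of 12 listed, 11 were tested, 2 fell, none rose and 9 did not pass (limma, Benjamini-Hochberg adjusted p under 0.05). Among all genes tested, 1.8% were called lower. The list was drawn up with earlier results of these data known, so its counts and p-values are given for reference only. The median log2 difference was -0.14, beside 0.043 over all genes. Rhox5, an X-linked homeobox gene, had log2 expression of 5.44, 6.11 and 5.84 in SCARKO-jsd and 10.26, 10.43 and 9.74 in jsd testes (adjusted p = 0.000314). Corin, a serine protease of the membrane, fell by 3.05 (adjusted p = 0.00749), a call that ended without jsd 1 (0.0540). Both averaged less than the dim limit in SCARKO-jsd testes, where Corin exceeded it only on SCARKO-jsd 2, which makes their fold changes imprecise. Serpina5, an inhibitor of serine proteases, was at -0.38 ± 0.090 (SE) with an adjusted p of 0.0664, a difference close to those of Susd3 and Tpd52l1. The remaining 8 ran from -0.74 (Gpd1) to 0.045 (Shbg), and only Shbg was above 0. With an unadjusted limma p under 0.05 the count was 5 of the 11 tested, beside 1960 of all 10916 genes tested.

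The pathways and families around the members mostly did not pass. Over 7 lists, 43 of 68 measured genes were bright enough to test, 2 rose, 1 fell and 40 did not pass, where 3.57% of all genes tested were called. Their median log2 difference was 0.069. The counts are thus near the background.

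Among the inhibitors related to Eppin, 4 of 12 measured genes were tested, 1 fell, 1 rose and 2, Slpi and Spint2, did not pass. Wfdc6a, a WAP domain gene, had log2 expression of 9.47, 9.41 and 9.37 in SCARKO-jsd 1, 2 and 3, against 10.02, 10.04 and 10.04 in jsd 1, 2 and 3. The groups were well apart, and Wfdc6a fell by 0.62 ± 0.080 (SE) on the log2 scale (adjusted p = 0.00816, limma with Benjamini-Hochberg adjustment). Wfdc1, another WAP domain gene, went the other way, at 9.88, 9.68 and 9.80 in SCARKO-jsd and 8.66, 9.15 and 9.15 in jsd testes (0.80 ± 0.15 SE, adjusted p = 0.0307). Wfdc6a no longer passed when jsd 1, jsd 2 or SCARKO-jsd 3 was left out (largest adjusted p = 0.0618), and with 1 array left out Wfdc1 passed only where it was SCARKO-jsd 2 (largest adjusted p = 0.112).

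Around B4galnt1, 14 of 17 measured genes of ganglioside synthesis and breakdown were tested, 1 rose and 13 did not pass. Glb1, the lysosomal beta-galactosidase that degrades gangliosides, was at 10.24, 10.75 and 10.43 in SCARKO-jsd and 9.69, 9.96 and 9.63 in jsd testes (0.72 ± 0.15 SE, limma adjusted p = 0.0475). Glb1 no longer passed when any jsd array or SCARKO-jsd 3 was left out (largest adjusted p = 0.203), nor with median centring (0.0671), no filter on dim genes (0.0554) or the mean of probe sets (0.0536). St8sia1, which adds a further sialic acid to gangliosides, had a log2 difference of -0.98 ± 0.28 (SE) with an adjusted p of 0.113, its jsd arrays ranging from 6.95 to 8.14.

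No tested gene passed around the other members. For dopamine, 4 of 11 measured genes were tested (Dbh, Maoa, Maob and Ppp1r1b, from 0.068 to 0.26), and the receptors Drd1, Drd2 and Drd3 and the synthesis enzymes Th and Ddc were dim. For the ubiquitin-like modifiers 11 were tested, from -0.071 (Ube2z) to 0.36 (Psme1, a proteasome activator, adjusted p = 0.119), among them Uba6, which activates FAT10 (0.22). In the TPD52 list, Tpd52 itself was at -0.010, Tpd52l2 at -0.22 and Plp2 at 0.003. Of the sushi domain genes, 4 were tested, and Susd4 was at 0.46 (adjusted p = 0.0849). In the X inactivation centre, Jpx, Rlim and Chic1 were tested, from -0.077 to 0.21, and Xist and Tsix were dim. With an unadjusted limma p under 0.05, the counts for these 5 lists were 1, 1, 1, 1 and 0, beside 1960 of all 10916 genes tested.

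**Figure D4:**
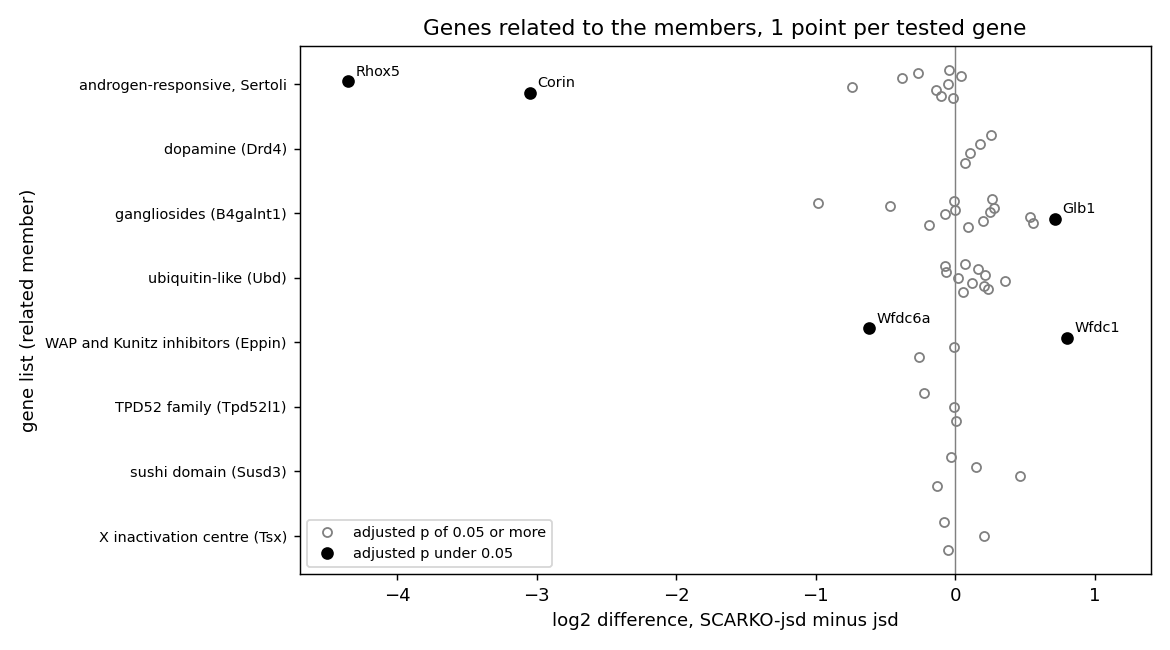
Log2 difference, SCARKO-jsd minus jsd (horizontal axis), for each tested gene of 8 lists of genes related to the members, with filled points for a limma Benjamini-Hochberg adjusted p under 0.05. Rhox5, Corin and Wfdc6a lie below 0 and Glb1 and Wfdc1 above it. The open points run from -0.98 (St8sia1) to 0.56 (B4galt6), and those of the androgen-responsive list lie below 0 except Shbg.

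The nearest genes on the chromosomes of the members were looked at after these values were seen. Of 28 nearest protein-coding genes in RefSeq, 2 on each side of each member, 13 were tested, 1 passed as lower and none as higher (limma, Benjamini-Hochberg adjusted p under 0.05), against 1.8% and 1.78% of all genes tested. The gene that passed was Wfdc6a, which lies next to Eppin on chromosome 2. Its difference of -0.62 was close to the -0.50 of Eppin. On chromosome 7, Cdhr5, Sct, Deaf1 and Tmem80 around Drd4 lay between -0.20 and 0.11. On the X chromosome, Chic1, which overlaps Tsx, was at -0.055. Ninj1, beside Susd3 on chromosome 13, was at -0.31 with an adjusted p of 0.0949.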

How the data were processed

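Per the submitters' processing notes, the authors made the deposited values, log2 expression per probe set and array, with RMA in the affy package, whose version the sources used here do not give. Values ran from 2.58 to 14.84, and the median was 6.26 on SCARKO-jsd 2 and 6.40 to 6.41 on the other 5 arrays. Probe sets were named from GEO's annotation of the platform, which may be outdated, and those with several symbols named no gene. The gene knocked out is not reported here.

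All 45037 probe sets other than the 64 controls were fitted with limma 3.58.1 (lmFit, eBayes, genotype as the only term, two-sided) in R 4.3.3. For lists, each of 18193 genes was represented by its brightest probe set (highest mean), and the lowest 40% of genes (mean log2 expression up to 6.64, the dim limit) were left out, which left 10916. Benjamini-Hochberg adjusted p under 0.05 was called. The labels do not tie each RNA to a mouse, so the p-values reflect only how these arrays vary, and their number limits the precision. The script was tested on simulated data.

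The members and the gene lists were chosen with earlier results of these data known. Genes named are the members, the 2 genes most like each, and, in each list, those called or up to 3 with the smallest p; neighbours, other list genes given as examples and range ends were added after values were seen. Alternatives were a further quantile normalization, median centring, arrayWeights, eBayes with trend and robust, other filters, a replicate block, the mean of probe sets, and each array left out. Subtracting the Sertoli marker mean and leaving out Ubd were chosen after seeing the data. Same-numbered arrays were not taken as pairs. Promoters came from RefSeq (GRCm38.p6). Figures used matplotlib 3.10.9 in Python 3.11.15.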

Additional observations from a re-analysis of the deposited data

How the results depend on the processing

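The member differences kept their sign at all 9 probe sets other than Ubd in each of 90 values, 10 alternatives a probe set. As the groups do not overlap there, leaving out an array or taking group medians could not reverse a sign. Leaving out 1 of 3 arrays also could not move a difference by more than the spread between replicates of its probe set. Of the 90 values, 89 moved by less than that spread. The exception was Susd3 (1428975_at), at -0.35 with median centring. Counts over the whole array were less stable. Of probe sets, 126 were called (56 higher, 70 lower), 63 with median centring (35 higher, 28 lower), 215 with trend and robust, and between 0 (without jsd 1, where limma gave 2959 at an unadjusted p under 0.05) and 627 (without SCARKO-jsd 2) with 1 array left out, the other omissions giving 3 (jsd 2), 25 (jsd 3), 19 (SCARKO-jsd 1) and 14 (SCARKO-jsd 3). Of genes, 390 were called, and between 75 (without jsd 1) and 757 (without SCARKO-jsd 2) with 1 array left out, with 243 when jsd 3, 119 when jsd 2 and 138 when SCARKO-jsd 3 was left out. With arrayWeights, whose estimates did not converge, 8870 probe sets, 860 genes and 5 related genes were called. The related genes called numbered 0 to 3 with 1 array left out (3 with all arrays; 0 without jsd 1, jsd 2 or SCARKO-jsd 3, where limma gave 10, 8 and 10 at an unadjusted p under 0.05), and the other androgen-responsive genes called lower 1 to 2. With the lowest 60% of genes left out that count was 0 (3 at an unadjusted p under 0.05), since the filter removed Rhox5 and Corin. Correlations of deviations between arrays of the same replicate number were -0.21, 0.23 and 0.24, and not every array correlated best with its own number. Deviations within a group of 3 arrays sum to 0, so these correlations are linked and cannot exclude a pairing. With the replicate block limma called 0 probe sets (4141 at an unadjusted p under 0.05) and 397 genes, and Wt1 did not pass (adjusted p = 0.0657). Each group had 3 arrays, and dim probe sets, Ubd among them, leave small changes unseen.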
